A study of Gallus gallus with 4 samples.

Results

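Forkhead (FOX) and SOX genes encode transcription factors, and 40 of them (27 FOX and 13 SOX genes) were taken from the 24356 genes of 3 RNA tables of embryonic chicken lung. The members are the genes whose symbol in the deposited tables is FOX with a letter from A to S and a number, or SOX with a number, without FOXA1, FOXA2, SOX2 and SOX9. FOXI2 carries its symbol in the E13 table only and was followed by its gene ID (ENSGALG00000044849) in the E20 tables. The samples came from wild-type embryos: lung cells sorted as epithelial at embryonic day 20 (the E20 epithelial library), lung cells without CD45-positive immune cells at day 20 (the E20 CD45neg library), and a mix of sorted lung cell populations at day 13, read as nuclear RNA and as open chromatin (ATAC) of the same nuclei. Each is 1 sample without a replicate, so no difference between groups was tested, and intervals are 95% exact Poisson intervals that cover counting error only. The labels call the molecule nuclear RNA at E13 and for the E20 epithelial library, whereas the CD45neg cells carry the label total RNA.

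Forkhead proteins bind DNA through a winged-helix domain and SOX proteins through an HMG box that bends the DNA. The families divide into groups with distinct roles in the lung of the mouse: FOXP factors act in the epithelium, FOXF factors in mesenchyme and vessels, SOXF factors (SOX17 and SOX18) in endothelium, FOXJ1 in cells with motile cilia, and SOX10 in nerve-associated glia. FOXO proteins are held in the cytoplasm by insulin and AKT signalling, and FOXM1 drives genes of cell division. No sequence of a member was used here.

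Cells were clustered within each library without using the members, and clusters were assigned to groups by lists of cell type markers. EPCAM marks epithelium, KDR endothelium, COL1A2 fibroblasts, TRPC6 pericyte-type cells and PTPRC (CD45) immune cells. The TRPC6-marked clusters of both E20 libraries had ADIPOQ and POSTN among their leading genes, and COL1A2 at 472 and 476 CPM. In the E20 CD45neg library the pericyte list scored 3.89 and the fibroblast list 3.73. At E13 the TRPC6-marked cluster was led by EBF1 and TRPC6, with 200 CPM of COL1A2. Whether the TRPC6-marked groups of the 2 stages hold the same cell type was not tested. The EPCAM-, KDR-, COL1A2-, TRPC6- and PTPRC-marked groups held 1923, 852, 633, 172 and 195 cells of the E20 epithelial library. Their sizes were 91, 656, 624, 220 and 7 cells for the E20 CD45neg library and 4221, 157, 1349, 289 and 471 nuclei at E13. The 7 PTPRC-marked cells of the E20 CD45neg library were too few to compare. The kept barcodes had a median of 4484.5, 3515 and 4216 UMIs (counted RNA molecules) in the same order of libraries. The median mitochondrial share was 7.44%, 3.62% and 42.6%. The E20 libraries listed 106 barcodes in common, of which 5 were kept in both. Without these barcodes the 5 counts of members reported below that use E20 cells were the same. Levels are CPM (counts per 1e+06), the UMIs of a gene scaled to the UMIs of its group, and they are not scaled to gene length, so levels are compared between groups and not between genes. The UMIs of a group include mitochondrial ones, whose larger share at E13 enters every unadjusted ratio of E20 over E13 below.

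Epithelial RNA was also counted outside epithelium at E13 and, at a lower level, in the E20 epithelial library. The EPCAM transcript reached 42.7 to 79.2 CPM in the other 4 marked groups at E13, which is 13.5% to 25.1% of the 315 CPM of the EPCAM-marked group. In the E20 epithelial library EPCAM had 10.2 to 13.5 CPM in the other 4 marked groups, against 584 CPM in the EPCAM-marked group. The E20 CD45neg library had 0 EPCAM UMIs in its KDR-, COL1A2- and TRPC6-marked groups, against 603 CPM in its EPCAM-marked group. It had more erythroid RNA in these groups, where the erythroid marker list summed to 19106, 18475 and 14003.5 CPM. In the E20 epithelial library the sums were 4299, 6596 and 4011 CPM. The part of such RNA in the levels of members, SOX6 and FOXN3 among them, was not tested.

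The members were compared between groups to see which cell type carried each. A member was called for a group when the group was at least 2-fold above the next on CPM + 1 and had at least 10 CPM and 10 UMIs. In the E20 epithelial library 16 members passed the level filter and 11 were called, beside 29.6% of all genes tested. In the E20 CD45neg library 16 passed and 11 were called, beside 26.6% of all genes. At E13 19 passed and 8 were called, beside 21.4% of all genes. The median log2 ratio of the top group over the next was 1.42, 1.56 and 0.81 for the members in the same order of libraries, and 0.47, 0.44 and 0.33 for all genes tested. Of the 40 members, 22 passed in at least 1 library, 15 were called in at least 1, and 5 were called in all 3: SOX17, SOX18, FOXF1, FOXP2 and FOXO1. The first 3 were called for the KDR-marked group each time and FOXP2 for the EPCAM-marked group each time, whereas FOXO1 was called for different groups at E20 and E13.

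**Figure D1:**
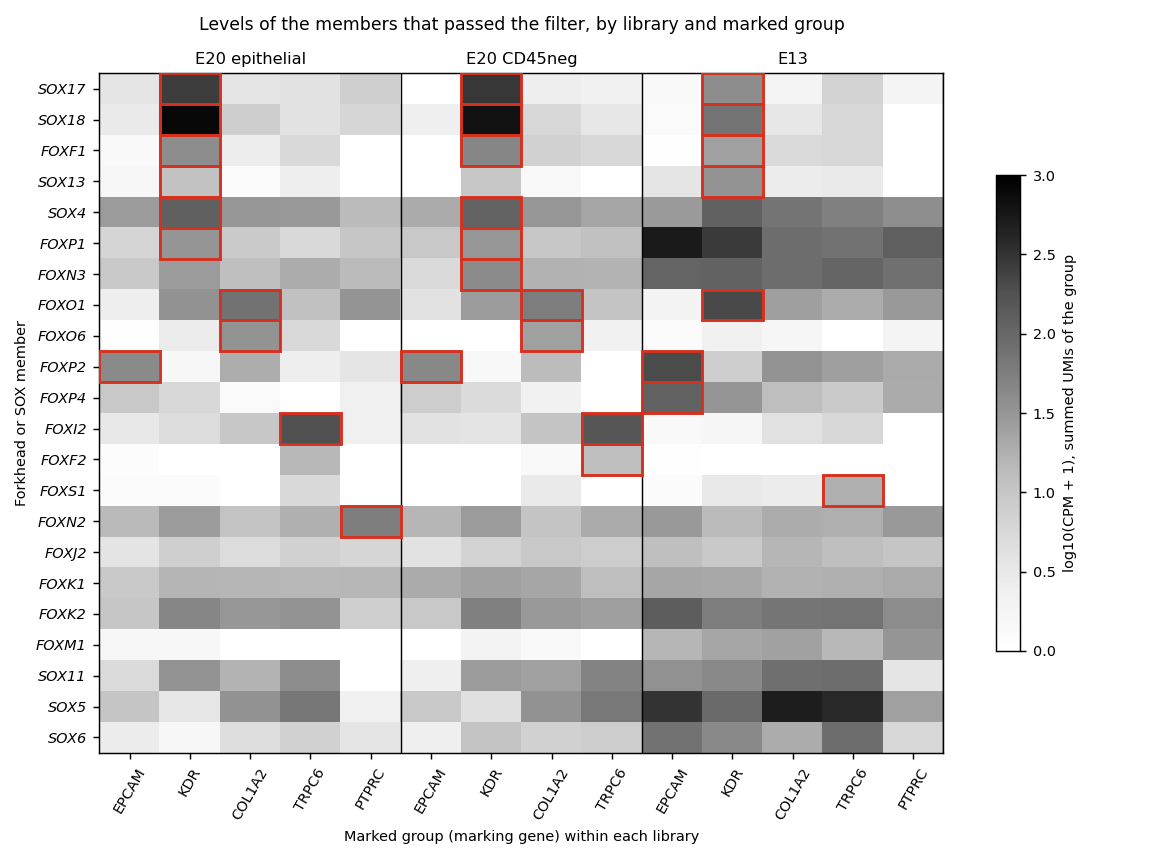
Level of the 22 members that passed the filter in at least 1 library, as log10(CPM + 1) from white to black, for each marked group (columns) of the E20 epithelial library, the E20 CD45neg library and E13. Red frames mark calls, and SOX17, SOX18 and FOXF1 have one in the KDR column of every library.

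The KDR-marked group held the most calls: 6 members in the E20 epithelial library, 6 in the E20 CD45neg library and 5 at E13, where 7.03%, 9.37% and 3.67% of all genes tested were called for that group. SOX17, a SOXF factor known in the mouse for arterial identity, reached 259 CPM (243 to 276) in the KDR-marked group of the E20 epithelial library, and 2.52, 2.62, 3.01 and 6.40 CPM in the EPCAM-, COL1A2-, TRPC6- and PTPRC-marked groups. In the E20 CD45neg library it reached 293 CPM (271 to 316) in the KDR-marked group, 1.52 and 1.18 CPM in the COL1A2- and TRPC6-marked groups, and 0 UMIs in the EPCAM-marked group. At E13 it reached 37.3 CPM (28.1 to 48.5) in the KDR-marked group, and 5.79 CPM in the TRPC6-marked group, 0.889 in the COL1A2-marked, 0.845 in the PTPRC-marked and 0.367 in the EPCAM-marked group. The KDR-marked group thus stood above the next by log2 ratios of 5.13, 6.87 and 2.49 in the order given.

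SOX18, the other SOXF factor, needed in the mouse for the first lymphatic vessels, was also highest in the KDR-marked group of every library. Its KDR-marked level was 810 CPM (782 to 839) in the E20 epithelial library, with 1.997 to 6.86 CPM in the other 4 groups. In the E20 CD45neg library it was 645 CPM (612 to 679) in the KDR-marked group and 1.44 to 4.94 CPM in the other 3. At E13 it was 70.5 CPM (57.6 to 85.4) in the KDR-marked group, 4.83 CPM in the TRPC6-marked group and at most 2.22 CPM elsewhere. The ratios over the next group were 6.69, 6.77 and 3.62 on the log2 scale, and SOX17 and SOX18 had the 2 highest ratios of all called members in each E20 library, while SOX13, FOXO1, FOXS1 and FOXP2 stood between them at E13.

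FOXF1, which in the mouse acts in lung capillaries and mesenchyme, was also called for the KDR-marked group in every library. It reached 37.4 CPM (31.5 to 44.1) there in the E20 epithelial library, against 4.51 CPM or less in each other group. The E20 CD45neg library gave 46.1 CPM (37.6 to 56.05) in the KDR-marked group, 6.08 CPM in the COL1A2-marked and 4.73 CPM in the TRPC6-marked group. The E13 nuclei gave 24.4 CPM (17.1 to 33.8) in the KDR-marked group, 4.83 CPM in the TRPC6-marked and 4.22 CPM in the COL1A2-marked group. FOXF1 was thus higher in the KDR-marked group than in the COL1A2-marked fibroblasts at both stages, and it had 0 UMIs in the PTPRC-marked groups. Smooth-muscle nuclei at E13 had 10.7 CPM from 7 UMIs.

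SOX13, a SOXD factor, was called at E13 with 33.2 CPM in the KDR-marked group and at most 2.48 CPM in the other 4. In the E20 epithelial library it was called with 10.3 CPM in the KDR-marked group and 1.503 CPM or less in the others. Its 8.68 CPM in the KDR-marked group of the E20 CD45neg library stayed under the 10 CPM filter. SOX13 was the only member called for the KDR-marked group at E13 and in the E20 epithelial library but not in the E20 CD45neg library.

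SOX4, a SOXC factor of progenitor cells, was called for the KDR-marked group in both E20 libraries. It had 120 CPM there and 12.8 to 30.4 CPM in the other groups of the E20 epithelial library. The E20 CD45neg library had 110 CPM in the KDR-marked group and 18.7 to 30.002 CPM in the others. At E13 the KDR-marked group was again the highest with 117 CPM, but the COL1A2-marked group followed at 71.3 CPM, so the 2-fold rule was not met. FOXP1, a forkhead repressor known from lung epithelium and lymphocytes, was called for the KDR-marked group in both E20 libraries too. Its levels were 30.8 CPM in the KDR-marked group and 4.51 to 8.96 CPM in the other groups of the E20 epithelial library, and 30.1 CPM against 8.63 to 10.7 CPM in the E20 CD45neg library. At E13 the order differed: FOXP1 had 534 CPM in the EPCAM-marked group, 275 CPM in the KDR-marked, 122 CPM in the PTPRC-marked, 85.3 CPM in the COL1A2-marked and 74.4 CPM in the TRPC6-marked group. FOXN3, a checkpoint-linked repressor, was called in the E20 CD45neg library only, with 39.7 CPM in the KDR-marked group and 15.6 CPM in the next. It had 27.4 CPM in the KDR-marked group against 18.04 CPM in the next in the E20 epithelial library, and 79.5 to 114 CPM in all 5 groups at E13. Erythroid cells, outside the marked groups, had 31.3 CPM of FOXN3 in the E20 epithelial and 27.01 CPM in the E20 CD45neg library.

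**Figure D2:**
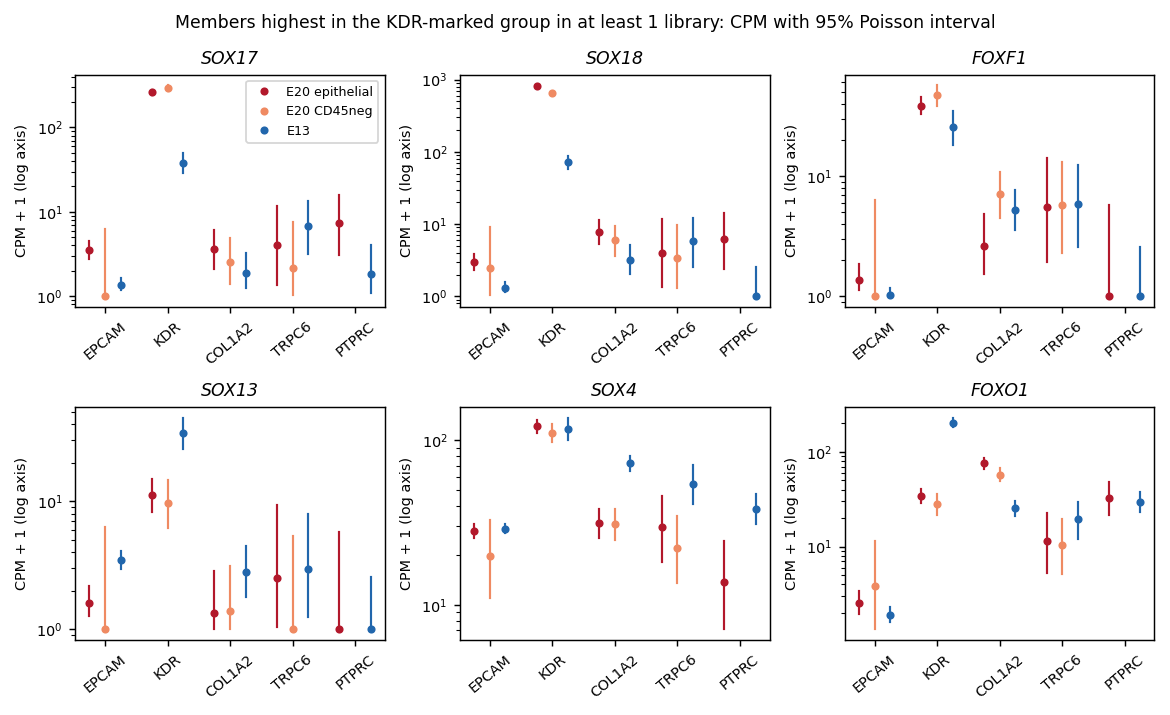
Level (CPM + 1, log axis) of 6 members in each marked group, with 95% Poisson intervals for counting error. Dark red points are the E20 epithelial library, orange points the E20 CD45neg library and blue points E13; SOX17 and SOX18 stand far above the other groups in the KDR column, and FOXO1 is highest in COL1A2 at E20 and in KDR at E13.

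Within the KDR-marked group of the E20 libraries, clusters differed in these members, and the clustering itself did not use them. A cluster led by SEMA3G and GJA4, genes known from arteries, had 566 CPM (510 to 627) of SOX17 in the E20 epithelial library, against 205 CPM (189 to 222) in the cluster led by CA4, a gene known from lung capillaries. The same pair gave, among E20 CD45neg cells, 1054 CPM (899 to 1229) and 239 CPM (218 to 262). A cluster with LYVE1 and PROX1, genes known from lymphatic vessels, had 0 SOX17 UMIs among 32 cells in the E20 epithelial library, which allows up to 18.5 CPM, and 1 UMI among 11 cells in the E20 CD45neg library. SOX17 thus ran from the SEMA3G cluster down to the LYVE1 cluster in both E20 libraries.

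SOX18 was spread more evenly, at 1114, 775 and 295 CPM in the SEMA3G, CA4 and LYVE1 clusters of the E20 epithelial library and 867, 636 and 221 CPM in those of the E20 CD45neg library. FOXF1 was highest in the CA4 cluster, at 41.6 CPM (34.6 to 49.6) in the E20 epithelial library and 48.1 CPM (39.0 to 58.8) in the E20 CD45neg library. The SEMA3G clusters had 29.4 CPM (17.7 to 45.9) and 32.3 CPM (10.5 to 75.5), intervals that overlap those of the CA4 clusters, and both LYVE1 clusters had 0 FOXF1 UMIs. FOXO1 ran the other way: 117 CPM (70.4 to 183) in the LYVE1 cluster of the E20 epithelial library against 49.5 CPM in the SEMA3G and 25.4 CPM in the CA4 cluster, and 294 CPM (152 to 514) against 77.6 and 17.5 CPM in the E20 CD45neg library. FOXC2, a factor of lymphatic valves in the mouse, had 2 UMIs in the LYVE1 cluster of the E20 epithelial library and 3 in that of the E20 CD45neg library, which were all its UMIs in those KDR-marked groups.

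**Figure D3:**
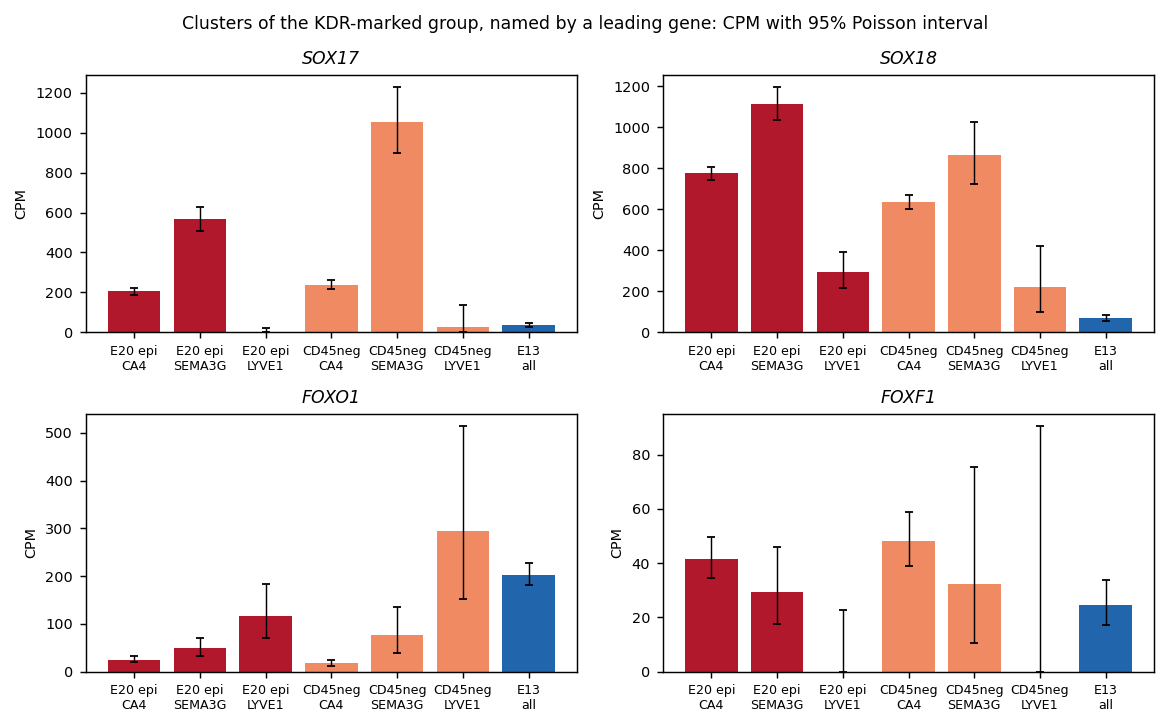
Level (CPM) of SOX17, SOX18, FOXO1 and FOXF1 in 3 clusters of the KDR-marked group of each E20 library, named by a leading gene, and in the 1 KDR-marked cluster of E13, with 95% Poisson intervals. SOX17 is highest in the SEMA3G bars, FOXO1 in the LYVE1 bars among E20 clusters, and a missing bar is a count of 0; a KDR-marked E20 epithelial cluster of 25 cells is not drawn.

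FOXO1 and FOXO6 were the members called for fibroblasts at E20, with 2 of 16 members tested so called per E20 library, beside 5.67% (E20 epithelial) and 7.05% (E20 CD45neg) of all genes. At E13 0 members and 3.72% of all genes were called for the COL1A2-marked group. FOXO1, which in other vertebrates restrains growth and metabolism downstream of AKT, had 75.2 CPM in the COL1A2-marked group of the E20 epithelial library, 33.4 CPM in the KDR-marked, 32.0 in the PTPRC-marked, 10.5 in the TRPC6-marked and 1.55 in the EPCAM-marked group. Among E20 CD45neg cells the values were 56.6 CPM in the COL1A2-marked, 26.9 in the KDR-marked, 9.47 in the TRPC6-marked and 2.88 in the EPCAM-marked group. At E13 the KDR-marked group led with 203 CPM (181 to 228), and the PTPRC-, COL1A2-, TRPC6- and EPCAM-marked groups had 28.7, 24.7, 18.4 and 0.917 CPM. The epithelium was thus the lowest group for FOXO1 in all 3 libraries. The COL1A2-marked group exceeded the next in FOXO1 by log2 ratios of 1.15 and 1.04 at E20, close to the 2-fold limit. The second of these turned to -0.38 when only cells with at least 1000 detected genes were kept, a setting that left 131 KDR-marked cells in the E20 CD45neg library.

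FOXO6, a FOXO factor known mainly from brain, had 32.7 CPM in the COL1A2-marked group of the E20 epithelial library and 4.51 CPM or less in the other groups. It had 24.3 CPM in the COL1A2-marked and 1.18 CPM in the TRPC6-marked group of the E20 CD45neg library, with 0 UMIs in the EPCAM- and KDR-marked groups. At E13 it stayed at or below 1.36 CPM in all 5 groups. Among the marked groups, FOXO6 thus passed the filter only in fibroblasts of the E20 libraries. Its highest cluster was led by CCN3 and DPT in the E20 epithelial library, with 78.8 CPM (60.1 to 101). Smooth muscle had 10.1 and 34.6 CPM in the E20 epithelial and E20 CD45neg libraries, from 2 and 13 UMIs. The second value (18.4 to 59.1) was also above 10 CPM and 10 UMIs, and its interval overlaps that of the COL1A2-marked group there (18.7 to 31.0). Of 11 FOXO signalling genes tested in each library, SESN1 was called for the COL1A2-marked group in both E20 libraries. It was called for the KDR-marked group at E13. In all, 5, 6 and 2 of the 11 were called in the E20 epithelial library, the E20 CD45neg library and at E13. The shares of all genes called for any group were 29.6%, 26.6% and 21.4%.

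Other forkheads were called for the TRPC6-marked group: 1 in the E20 epithelial library, 2 in the E20 CD45neg library and 1 at E13, beside 3.94%, 5.23% and 2.5% of all genes. FOXI2, of the FOXI group that in vertebrates includes the ionocyte factor FOXI1, reached 179 CPM (148 to 214) in the TRPC6-marked group of the E20 epithelial library, against 8.83 CPM in the COL1A2-marked and 1.28 to 3.95 CPM in the remaining groups. The E20 CD45neg library gave 157 CPM (132 to 187) in the TRPC6-marked group, 9.49 CPM in the COL1A2-marked and 2.74 to 2.88 CPM in the other groups. At E13 the TRPC6-marked group had 4.83 CPM from 5 UMIs. Smooth muscle was the next highest at E20, with 50.6 CPM in the E20 epithelial and 50.5 CPM in the E20 CD45neg library. The ionocyte list itself was not called for the TRPC6-marked group as a whole: of 3 genes tested in each library, SLC4A4 was called for it in both E20 libraries, and FOXI1 had at most 4 UMIs in any group.

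FOXF2, a factor of brain pericytes in the mouse, had 13.5 CPM from 9 UMIs in the TRPC6-marked group of the E20 epithelial library, 1 UMI short of the filter, and 11.8 CPM from 10 UMIs in that of the E20 CD45neg library, where it was called. Its other groups held at most 2 UMIs, and E13 held 1 UMI in all 5 groups. FOXS1, a factor of the vascular wall in the mouse, was called for the TRPC6-marked group at E13, with 17.4 CPM from 18 UMIs against 2.03 CPM in the KDR-marked and 1.78 CPM in the COL1A2-marked group. At E20 the TRPC6-marked group had 4.51 CPM of FOXS1 in the E20 epithelial library and 0 UMIs in the E20 CD45neg library. FOXI2 and FOXF2 were thus high in TRPC6-marked cells at E20 and FOXS1 at E13, with few UMIs behind FOXF2 and FOXS1.

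For the EPCAM-marked group 1 member was called in each E20 library and 2 at E13, beside 3.95%, 4.95% and 5.52% of all genes. FOXP2, a repressor of the distal lung epithelium in the mouse, had 40.8 CPM in the EPCAM-marked group of the E20 epithelial library, 17.7 CPM in the COL1A2-marked group and 2.56 CPM or less elsewhere. In the E20 CD45neg library it had 43.1 CPM in the EPCAM-marked, 12.5 in the COL1A2-marked and 0.457 in the KDR-marked group, with 0 UMIs in the TRPC6-marked group. The COL1A2-marked value there came from 33 UMIs in cells with 0 EPCAM UMIs. At E13 FOXP2 had 197 CPM in the EPCAM-marked group and 33.1, 25.1, 19.02 and 6.78 CPM in the COL1A2-, TRPC6-, PTPRC- and KDR-marked groups, which is 16.8%, 12.7%, 9.64% and 3.43% of the EPCAM-marked level. The EPCAM transcript in the same groups stood at 23.1%, 25.1%, 13.5% and 14.4%, so FOXP2 in these 4 groups did not exceed the share seen for EPCAM at E13. In E13 smooth muscle the FOXP2 share was higher, at 31.8% against 17.99%, from 41 FOXP2 and 37 EPCAM UMIs. In neural and glial nuclei the shares were 40.04% and 30.9%, from 13 FOXP2 and 16 EPCAM UMIs. The levels there were 79.0 CPM (42.1 to 135) and 97.3 CPM (55.6 to 158), so these shares cannot be ranked. An unnamed E13 cluster of 98 nuclei with PODXL and the mesothelial gene WT1 among its leading genes had 219 CPM of FOXP2 with 53.1 CPM of EPCAM.

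FOXP4, a relative of FOXP2 active in the same tissue in the mouse, was called for the EPCAM-marked group at E13 with 112 CPM, against 31.2 CPM in the KDR-marked group and 7.73 to 18.6 CPM in the others. At E20 it stayed under the filter, with 8.21 CPM in the EPCAM-marked group of the E20 epithelial library and 7.19 CPM in that of the E20 CD45neg library. FOXP1, FOXP2 and FOXP4 were all highest in the EPCAM-marked group at E13. Of the cofactors fixed for FOXP and SOX factors, 12 were tested at E13 and 2 were called, beside 21.4% of all genes. These were NKX2-1 for the EPCAM-marked and TLE4 for the PTPRC-marked group. Of 11 tested in each E20 library, 5 were called in the epithelial (29.6% of all genes) and 4 in the CD45neg library (26.6%). In both, CTBP2 and LEF1 were called for the TRPC6-marked, CTNNB1 for the KDR-marked and NKX2-1 for the EPCAM-marked group. TLE4 was called for the PTPRC-marked group of the E20 epithelial library.

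FOXN2, a forkhead of the FOXN group, was the 1 member called for immune cells: 57.6 CPM (42.02 to 77.1) in the PTPRC-marked group of the E20 epithelial library, against 26.6 CPM in the KDR-marked group. Of all genes, 9% were called for the PTPRC-marked group there and 6.01% at E13, where 0 members were. At E13 the PTPRC-marked and EPCAM-marked groups had 28.7 CPM each. The 7 PTPRC-marked cells of the E20 CD45neg library held 4 FOXN2 UMIs.

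Members that passed the filter without a call were FOXJ2, FOXK1, FOXK2, FOXM1, SOX5, SOX6 and SOX11. FOXK1 and FOXK2, repressors linked to autophagy and metabolism, were detected in every marked group compared. FOXK1 ranged from 7.92 to 15.01 CPM in the E20 epithelial library, from 11.8 to 23.7 CPM in the E20 CD45neg library and from 15.5 to 20.9 CPM at E13. FOXK2 ranged from 6.40 to 46.1, from 8.63 to 52.5 and from 38.9 to 130 CPM, with the KDR-marked group highest at E20 and the EPCAM-marked group at E13. FOXJ2 ranged from 2.66 to 6.58, from 2.88 to 8.35 and from 8.14 to 14.4 CPM.

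SOX5 and SOX6, SOXD factors that support SOX9 in cartilage, were high in several groups at E13. SOX5 had 495 CPM in the COL1A2-marked, 394 in the TRPC6-marked, 319 in the EPCAM-marked, 94.2 in the KDR-marked and 24.1 in the PTPRC-marked group. At E20 the TRPC6-marked group led in both libraries, with 66.1 CPM against 33.3 CPM in the COL1A2-marked group of the E20 epithelial library and 63.9 against 33.8 CPM in the E20 CD45neg library, just short of the 2-fold rule. In E13 epithelium SOX5 was concentrated: a cluster led by SFTPA1 and CFTR had 1136 CPM (1098 to 1174) and the cluster with ODAD2 and CDC20B 1070 CPM (984 to 1161), while a COL1A2-marked cluster with FGF10 had 890 CPM (845 to 937). SOX11, a SOXC factor like SOX4, had 39.1 CPM in the TRPC6-marked and 32.7 CPM in the KDR-marked group of the E20 epithelial library, and 48.5 and 26.5 CPM in those of the E20 CD45neg library. At E13 it had 85.0 CPM in the TRPC6-marked and 82.2 CPM in the COL1A2-marked group, 42.03 in the KDR-marked and 35.1 in the EPCAM-marked group. At E13 SOX11 was lowest in the PTPRC-marked group, with 2.54 CPM. That group had 0 UMIs in the E20 epithelial library, which allows up to 3.84 CPM. The EPCAM-marked group had 4.07 CPM (3.06 to 5.30) there, so these 2 groups cannot be ranked.

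SOX6 was highest outside the marked groups at E20. Erythroid cells, where SOX6 in the mouse silences embryonic globin genes, had 133 CPM (121 to 146) in the E20 epithelial library and 109.5 CPM (100.3 to 119) in the E20 CD45neg library. The 5 marked groups of the E20 epithelial library had 0.527 to 6.01 CPM, and the 4 compared in the E20 CD45neg library had 1.44 to 9.59 CPM. Within erythroid cells, SOX6 was highest in the clusters led by HBE and RFESD, with 204 CPM in the E20 epithelial and 233 CPM in the E20 CD45neg library, and lowest in those led by HBE1, with 40.9 and 43.7 CPM. At E13 no cluster was named erythroid, and SOX6 had 86.9 CPM in the TRPC6-marked, 74.8 in the EPCAM-marked, 42.7 in the KDR-marked, 18.0 in the COL1A2-marked and 5.07 in the PTPRC-marked group, with 340 CPM in 36 neural and glial nuclei.

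Several members that failed the filter in the 5 groups were concentrated in small clusters. SOX10, the glial and neural crest factor, had 801 CPM (555 to 1120; 34 UMIs) in 9 neural and glial cells of the E20 CD45neg library, and at most 1.18 CPM in its marked groups. At E13 the 36 neural and glial nuclei held all 16 SOX10 UMIs of the named groups, 97.3 CPM. FOXD3, which acts before and beside SOX10 in neural crest, had 283 CPM (12 UMIs) in the same 9 cells and 24.3 CPM (4 UMIs) in the same 36 nuclei, and 0 UMIs in every other named group of the 3 libraries. SOX8, a SOXE relative, added 6 UMIs in the 9 cells. SOX4, SOX5 and SOX21 also had 6 UMIs each in these cells, 141 CPM (51.9 to 308). The clustering had not used these genes. Of 10 listed SOX10 glial targets, 4, 4 and 3 passed the filter in the marked groups of the E20 epithelial library, the E20 CD45neg library and E13. In each library 3 were called, beside 29.6%, 26.6% and 21.4% of all genes called for any group. ERBB3 was called for the EPCAM-marked and EDNRB for the KDR-marked group throughout. The third was GJB1 for the EPCAM-marked group in both E20 libraries and EGR2 for the COL1A2-marked group at E13.

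FOXJ1, which turns on the genes of motile cilia, had 159 CPM (127 to 196) in an EPCAM-marked E13 cluster of 65 nuclei that had ODAD2 and CDC20B among its leading genes. FOXN4, which acts beside it in multiciliated cells of the frog, had 59.8 CPM (40.9 to 84.3) in the same nuclei. That cluster held 85 of the 129 FOXJ1 UMIs and 32 of the 49 FOXN4 UMIs of the E13 EPCAM-marked group. All kept E13 nuclei held 160 FOXJ1 UMIs. The COL1A2-marked group had 4.66 CPM (2.89 to 7.13) of FOXJ1 from 21 UMIs, beside 3.94 CPM (3.29 to 4.68) in the EPCAM-marked group as a whole. In the E20 epithelial library a cluster of 44 cells with CHGA and SNTN among its leading genes had 89.1 CPM (56.5 to 134) of FOXJ1 and 124 CPM (84.8 to 175) of SOX21, an airway factor in the mouse, but 0 UMIs of FOXN4. CHGA is known from neuroendocrine cells and SNTN from cilia, so the leading genes of that cluster were mixed. Of the multiciliation list, 7 genes were tested at E13 and 2 (DNAH5 and TEKT1) were called for the EPCAM-marked group. In the E20 epithelial library 3 were tested, with CCNO called for the EPCAM-marked and RFX2 for the PTPRC-marked group. In the E20 CD45neg library 2 were tested and CCNO was called. The shares of all genes called for any group were 21.4% at E13, 29.6% in the E20 epithelial and 26.6% in the E20 CD45neg library.

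FOXM1, which drives the genes of mitosis, was highest at E13 in the EPCAM-marked cluster led by HMMR, BUB1B and TPX2, with 48.6 CPM (43.5 to 54.02), and 13.5 to 30.9 CPM across the 5 marked groups as wholes. In the E20 libraries it had 0 to 0.913 CPM in the marked groups. A smooth-muscle cluster of the E20 CD45neg library with CENPF and TOP2A among its leading genes held 6 of the 9 FOXM1 UMIs of the named groups there. The remaining members were rare: FOXC1, FOXD1, FOXD2, FOXD3, FOXI1, FOXL2, FOXN1, SOX1, SOX14 and SOX3 had at most 20 UMIs over all kept cells of the 3 libraries, and SOX1 and SOX3 had none. FOXC2 had 20.2 CPM (4 UMIs) in smooth muscle of the E20 epithelial and 18.6 CPM (7 UMIs) in that of the E20 CD45neg library, and FOXL3 had at most 11 UMIs in a library.

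Endothelial transcription factors were listed as the company of the SOXF factors. Of 13, 13 and 14 tested, 7, 10 and 7 were called for the KDR-marked group in the E20 epithelial library, the E20 CD45neg library and E13. Of all genes, 7.03%, 9.37% and 3.67% were so called. ERG, FLI1, LMO2, HEY1 and EPAS1 were called for that group in all 3 libraries. The excluded relatives FOXA1 and FOXA2 were called for the EPCAM-marked group in all 3 libraries. Of the cartilage genes that SOX5 and SOX6 act on, 2, 1 and 4 were tested and all were called in the same order of libraries. HAPLN1 was called for the COL1A2-marked group each time. The shares of all genes called for any group were 29.6%, 26.6% and 21.4%.

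The stages were then compared within a group. The E13 and E20 libraries differed in stage, assay and counting software together, so these cannot be told apart. The E20 epithelial library is labelled nuclear RNA, so whether its ratios set whole cells or nuclei against the E13 nuclei is not settled, and with it what an adjustment for gene length means there. Nuclear RNA is known to carry more unspliced RNA from long genes, and spacing to the neighbouring genes stands in for length here. The log2 ratio of E20 over E13 (CPM + 1) was therefore set against the median of the 100 genes of nearest spacing, and called past 4-fold. In the EPCAM-marked group of the E20 epithelial library over E13, 13 members were tested, 0 were higher (13.5% of all genes) and 6 were lower (15.3%). In the KDR-marked group of the E20 CD45neg library over E13, 16 were tested, 1 was higher (8.58%) and 5 were lower (12.9%). In the COL1A2-marked group of the E20 CD45neg library over E13, 15 were tested, 2 were higher (9.38%) and 2 lower (12.5%). The median relative log2 ratio of the members tested was -1.84, -0.79 and -0.63, against 0.01, -0.01 and -0.0049 for all genes tested. Before this adjustment all genes had medians of -0.18, 1.03 and 0.49.

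**Figure D4:**
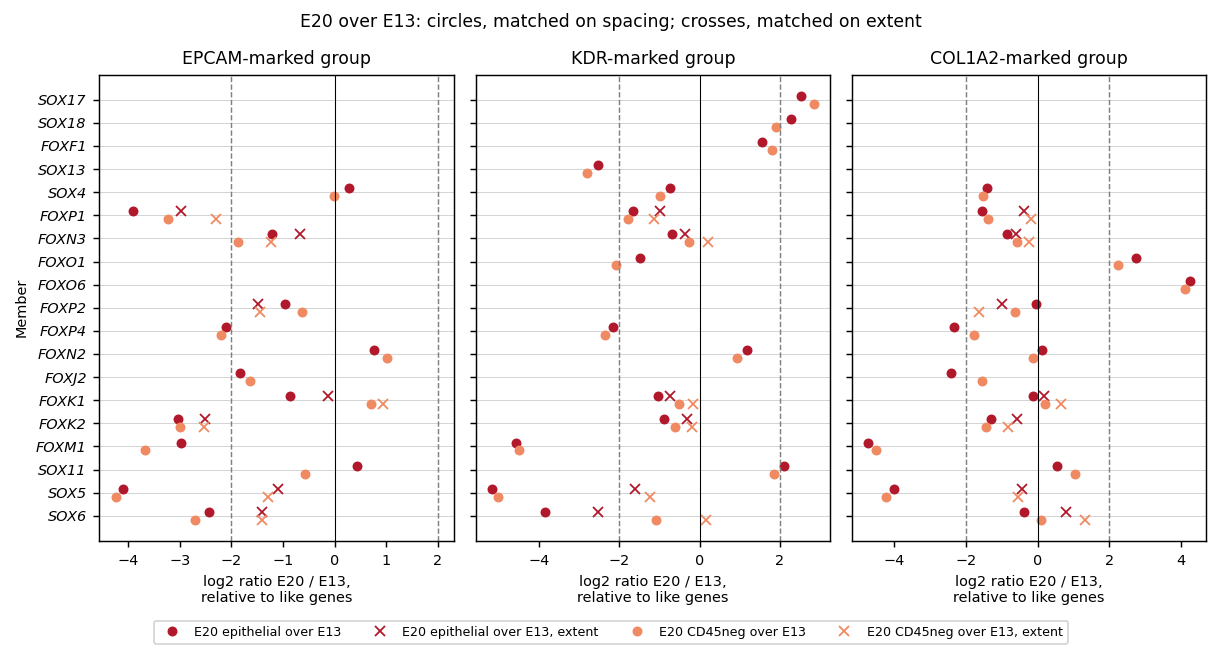
Log2 ratio of E20 over E13 relative to the 100 genes of nearest spacing (circles) or of nearest extent (crosses) for each member tested, in 3 marked groups. Dark red is the E20 epithelial library and orange the E20 CD45neg library, dashed lines mark 4-fold, and the SOX5 crosses lie inside the lines where its circles lie far below them.

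In the epithelium, FOXP1 had 5.40 CPM in the E20 epithelial library, 8.63 CPM in the E20 CD45neg library and 534 CPM at E13, a relative log2 ratio of -3.90 with the first. FOXK2 had 9.17 and 8.63 CPM at E20 and 130 CPM at E13 (-3.03), and FOXP4 had 8.21 and 7.19 CPM at E20 and 112 CPM at E13 (-2.10). SOX5 had 9.39 and 8.63 CPM at E20 and 319 CPM at E13 (-4.09), SOX6 had 1.78 and 1.44 CPM at E20 and 74.8 CPM at E13 (-2.43), and FOXM1 had 0.592 CPM and 0 UMIs at E20 and 14.3 CPM at E13 (-2.98). The same 6 of 13 members were called lower with the E20 CD45neg library, which shares the E13 nuclei of the comparison, beside 13.8% of all genes higher and 17% lower. FOXM1 had 0 UMIs there, and with 3 counts set as its E20 level it was at least 3.31-fold lower, which does not reach 4-fold. FOXP2, at 40.8 CPM in the E20 epithelial library and 197 CPM at E13, was lower by less than the limit after spacing was taken into account. FOXP2 was thus above the filter in epithelium at E20 while FOXP1, FOXP4, SOX5 and SOX6 were below 10 CPM.

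Spacing is a poor measure of length for SOX5. Its neighbours put its spacing at 46782.5 bp, but a peak placed inside the gene lay 332650 bp from its start. Set against the 100 genes of nearest extent by such peaks, SOX5 was at -1.09 in the EPCAM-marked group of the E20 epithelial library, and at -1.24 and -0.55 in the KDR- and COL1A2-marked groups of the E20 CD45neg library, inside 4-fold in all 3. By the same measure SOX6 was at -1.41 in the EPCAM-marked group, FOXP1 at -2.97 and FOXK2 at -2.50. Of the members with such a peak, 2 of 7 were then past 4-fold in the EPCAM-marked, 0 of 6 in the KDR-marked and 0 of 7 in the COL1A2-marked group. The share of all genes past 4-fold by extent is not given here, so these counts cannot be read against a background. In the KDR-marked group of the E20 epithelial library SOX6 was at -2.53 by this measure, from 2 UMIs at E20. In that of the E20 CD45neg library it was at 0.17, from 21 UMIs, so the 2 libraries differed. The part of erythroid RNA in this difference was not tested. Whether SOX5 and SOX6 passed 4-fold in epithelium therefore depended on how gene length is taken into account, while FOXP1 and FOXK2 in epithelium were past 4-fold by both measures. FOXM1, FOXP4, SOX13, SOX17, SOX18, FOXF1, FOXO1 and FOXO6 had no such peak and could not be set against genes of like extent.

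With the E20 epithelial library 3 of 16 members were higher in the KDR-marked group (8.51% of all genes) and 5 lower (12.9%). The 3 were SOX17, SOX18 and SOX11, and SOX11 was called by spacing alone (2.10): its own level was 32.7 CPM in the E20 epithelial library and 42.03 CPM at E13. SOX17 was higher in the KDR-marked group, with 259 CPM in the E20 epithelial library, 293 CPM in the E20 CD45neg library and 37.3 CPM at E13. Its relative log2 ratios were 2.53 and 2.85. SOX18 had 810 and 645 CPM at E20 and 70.5 CPM at E13, with relative ratios of 2.28 and 1.91, the second just inside 4-fold. FOXF1 had 37.4 and 46.1 CPM at E20 and 24.4 CPM at E13, with relative ratios of 1.55 and 1.81. Without the adjustment its log2 ratios were 0.60 and 0.89, below the medians of 0.96 and 1.03 for all genes in that group, so its direction turns when the median of all genes is taken as the reference. SOX17 and SOX18 were higher at E20 by either reference, whereas SOX13 was lower, with 10.3 and 8.68 CPM at E20 and 33.2 CPM at E13 (-2.52 and -2.80). FOXP4 had 4.74 and 4.11 CPM at E20 and 31.2 CPM at E13 (-2.14 and -2.34), and FOXM1 had 0.527 and 0.913 CPM at E20 and 21.02 CPM at E13 (-4.55 and -4.48).

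FOXO1 differed between cell types. In the KDR-marked group it had 33.4 CPM in the E20 epithelial library, 26.9 CPM in the E20 CD45neg library and 203 CPM at E13, relative log2 ratios of -1.49 and -2.08. In the COL1A2-marked group it had 75.2 and 56.6 CPM at E20 and 24.7 CPM at E13, relative ratios of 2.76 and 2.26. The counts alone, without the adjustment for spacing, gave -2.57 and -2.87 in the KDR-marked and 1.57 and 1.17 in the COL1A2-marked group. FOXO1 was thus lower in the KDR-marked and higher in the COL1A2-marked group of both E20 libraries, a difference that was not tested. The KDR-marked groups differed in lymphatic markers, with PROX1 at 15.8 and 16.4 CPM at E20 and 29.2 CPM at E13, and LYVE1 at 190.4 and 115 CPM at E20 and 140 CPM at E13. Their part in the FOXO1 values was not tested. With cells of at least 1000 detected genes the KDR-marked ratio of the E20 CD45neg library was -0.32.

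In the COL1A2-marked group of the E20 epithelial library 2 of 15 members were higher (9.95%) and 4 lower (13.3%). The 4 were FOXJ2, FOXM1, FOXP4 and SOX5, at -2.42, -4.73, -2.33 and -4.01. By extent SOX5 was at -0.44, inside 4-fold. With the E20 CD45neg library FOXJ2 and FOXP4 were inside 4-fold too, at -1.56 and -1.79. FOXO6 in the COL1A2-marked group had 32.7 and 24.3 CPM at E20 and 0.666 CPM (3 UMIs) at E13, relative ratios of 4.27 and 4.11. Counts alone gave log2 ratios of 4.34 (4.03 to 7.92) and 3.92 (3.58 to 7.50). In the TRPC6-marked group 2 members were higher in the E20 epithelial library (10.7% of all genes) and 4 were lower (15.4%), and 3 were higher in the E20 CD45neg library (10.5%) and 4 lower (15.4%). FOXI2 led there with 179 and 157 CPM at E20 and 4.83 CPM at E13, relative ratios of 4.10 and 3.90. SOX11 was called higher there by spacing, at 2.23 and 2.75, although its own level was lower at E20, with 39.1 and 48.5 CPM against 85.0 CPM at E13. The 100 genes of like spacing were at -3.33 and -3.55. FOXF2 in the E20 CD45neg library had 10 UMIs against 0 at E13, at least 4.08-fold higher with 3 counts set as the E13 level. The 100 genes of its spacing were at 1.04 on the log2 scale, so relative to them that bound does not reach 4-fold. FOXS1 was lower, with 4.51 CPM and 0 UMIs at E20 and 17.4 CPM at E13. FOXP2 was lower too, with 1 UMI in the E20 epithelial library, 0 UMIs in the E20 CD45neg library and 25.1 CPM (26 UMIs) at E13. As a share of the EPCAM-marked level, that E13 value was below the share for EPCAM itself, as given above. The part of epithelial RNA counted outside epithelium in this FOXP2 difference was not tested. SOX5 was among the 4 lower members in both libraries by spacing, at -2.29 and -2.76, but by extent its ratios were 1.18 and 1.32, so its direction turned. In the PTPRC-marked group 0 of 11 members were higher (8.63%) and 5 were lower (13%) in the E20 epithelial library over E13: FOXK2, FOXM1, FOXP4, SOX4 and SOX5. By extent SOX5 was at -0.67, inside 4-fold. At E13 the PTPRC-marked level of SOX5 was 7.56% and that of FOXP4 16.6% of the EPCAM-marked level, beside 13.5% for EPCAM itself. FOXM1 had 0 UMIs there at E20 and 30.9 CPM at E13, at least 8.03-fold lower with 3 counts set as the E20 level.

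FOXM1 was lower in all 5 groups, in the TRPC6-marked group by at least 2.998-fold in the E20 epithelial and at least 3.81-fold in the E20 CD45neg library, with 3 counts set for the 0 UMIs at E20. Of 10 listed targets tested in each case, 8 were lower and 0 higher past 4-fold in the EPCAM-marked group of the E20 epithelial library. Of all genes, 15.3% were lower there. Both the KDR- and the COL1A2-marked group of the E20 CD45neg library had 9 lower and 0 higher, beside 12.9% and 12.5% of all genes lower. In the PTPRC-marked group of the E20 epithelial library only 1 of 9 was lower (13% of all genes). Within the E20 epithelial library 6 of 8 listed targets tested were called for the PTPRC-marked group (9% of all genes), where FOXM1 itself had 0 UMIs. TOP2A had 9.69 CPM in the EPCAM-marked group of the E20 epithelial library and 87.3 CPM at E13, and 2.74 CPM in the KDR-marked group of the E20 CD45neg library and 80.7 CPM at E13. The endothelial list had 5 of 13 genes higher (8.58% of all genes) and 2 lower (12.9%) in the KDR-marked group of the E20 CD45neg library. KLF2, HEY1 and EPAS1 were among the higher, and NR2F2 and MEF2C were the lower.

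Open chromatin was read at E13 only. The authors' peak list assigned 350 of its 87491 peaks to 39 of the members (32 promoter and 318 distal peaks), and none to SOX10. ATAC counts over a member's peaks were summed per marked group and scaled to 1e+06 counts of the group in all peaks. All 8 members called for a group in E13 RNA had their highest scaled count in the same group, beside 67.1% of the 1914 genes so called. Over promoter peaks the group was the same for 5 of 6 members (55.1% of genes), over distal peaks for 8 of 8 (61.3%), and over peaks assigned to 1 gene only for 8 of 8 (66.2%). The exception over promoter peaks was FOXP4, whose promoters were most open in the KDR-marked group at 94.9 counts per 1e+06, with 46.04 in the EPCAM-marked group.

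SOX17 had 45.9 counts per 1e+06 in the KDR-marked group over 3 peaks, and 4.81 to 9.12 in the other 4 groups, from 75 counts in the KDR-marked group. SOX13 had 140 in the KDR-marked group and 29.8 to 41.5 elsewhere, and FOXO1 had 179 in the KDR-marked group, 110 in the PTPRC-marked and 37.8 to 84.6 in the rest. FOXF1 differed less: 182 in the KDR-marked, 145 in the TRPC6-marked and 122 in the COL1A2-marked group, against 46.01 in the PTPRC-marked and 22.9 in the EPCAM-marked group. Its chromatin was thus open in both vessel and mesenchymal groups, although its RNA was called for the KDR-marked group. SOX18 was similar, with 93.7 in the KDR-marked, 61.4 in the TRPC6-marked and 60.6 in the COL1A2-marked group, and 13.5 and 10.1 in the EPCAM- and PTPRC-marked groups. FOXP2 had 76.3 in the EPCAM-marked group and 9.19 to 27.4 elsewhere, FOXP4 had 351 and 143 to 245, and FOXS1 had 130 in the TRPC6-marked group and 90.02 in the KDR-marked group.

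**Figure D5:**
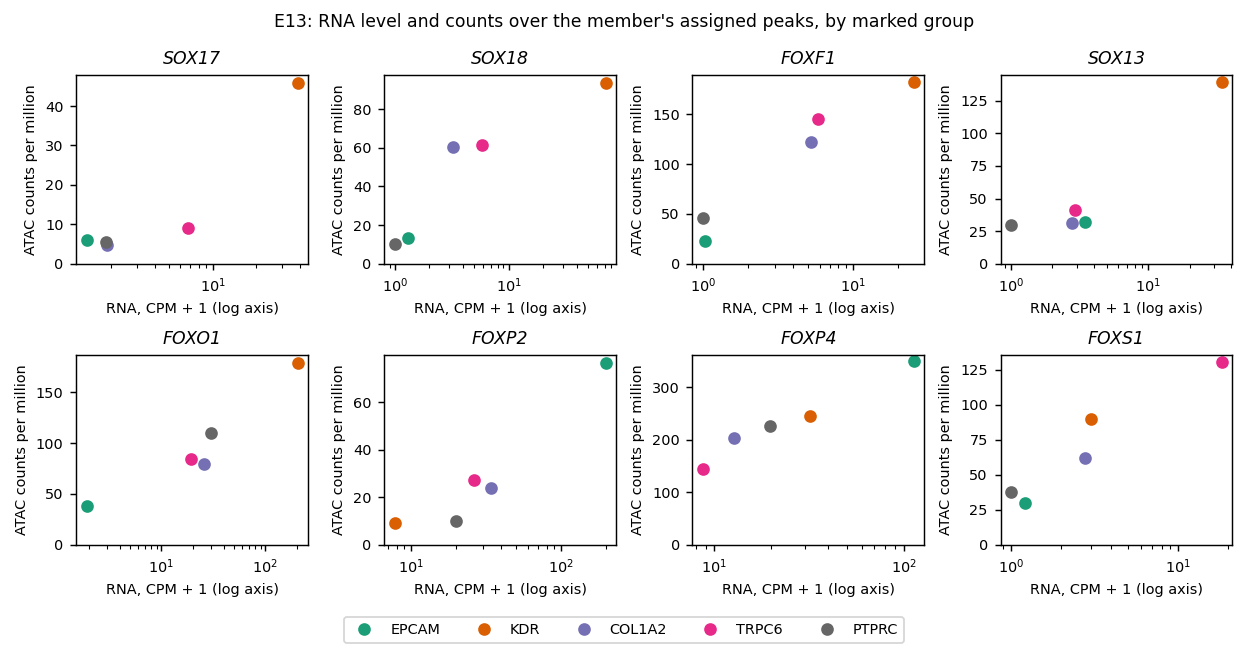
For the 8 members called for a group in E13 RNA, the RNA level (CPM + 1, log axis) and the ATAC counts per 1e+06 over the member's assigned peaks, with 1 point per marked group. The called group is the upper right point of each panel; FOXF1 and SOX18 also have open chromatin in the TRPC6- and COL1A2-marked groups, where their RNA is low.

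Single peaks are given next, mostly the one with the largest ratio for each member, so their ratios are high by that choice. Coordinates are those of the deposited list, counted from 1, on the build galGal6 named in the submitters' processing notes, and distances are to the gene's start. FOXO1 (chromosome 1, start 171900251) had a distal peak at 171938561 to 171939000, 38310 bp downstream, with 49.0 counts per 1e+06 in the KDR-marked group (80 counts) and 1.01 in the next (2 counts), a 24.9-fold ratio on counts per 1e+06 + 1. SOX18 (chromosome 20, start 9380605) had one at 9385983 to 9386788, 5378 bp downstream, with 47.2 in the KDR-marked and 5.15 in the COL1A2-marked group, 7.83-fold, while its promoter peak at 9380155 to 9380984 differed little, at 35.5 and 28.4. The FOXO1 promoter had 39.2 in the KDR-marked and 38.4 in the PTPRC-marked group.

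SOX13 (chromosome 26, start 1695658) had 2 of its 5 peaks called for the KDR-marked group, beside 1.56% of all peaks tested. These distal peaks lay at 1704730 to 1705663 with a 3.17-fold and at 1707155 to 1708027 with a 4.01-fold ratio. FOXF1 (chromosome 11, start 17395059) had 1 such peak at 17388408 to 17389278, 5781 bp downstream, with 43.5 in the KDR-marked and 18.2 in the TRPC6-marked group, 2.31-fold. Another FOXF1 peak, at 17448716 to 17449618, 53657 bp upstream, had 19.4 in the COL1A2-marked and 9.80 in the KDR-marked group, short of the 2-fold limit. SOX17 (chromosome 2, start 110517253) had its most KDR-biased peak at 110513303 to 110513906, 3347 bp upstream, with 17.1 in the KDR-marked and 2.32 in the COL1A2-marked group, but from 28 counts, under the minimum of 50. Its peak 28017 bp upstream had 28.8 in the KDR-marked and 7.46 in the TRPC6-marked group from 47 counts. These SOX17 peaks were chosen after their values were seen. FOXF1 thus had 1 peak called for the KDR-marked group and another that was higher in the COL1A2-marked group by less than 2-fold. FOXO1 had peaks biased to different groups, as its peak at 171933641 to 171934315 favoured the PTPRC-marked group 4.42-fold.

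FOXP2 (chromosome 1, start 26110344) had 6 of its 8 peaks called for the EPCAM-marked group. Of all peaks with at least 50 counts in their top group, 28.7% were so called. The sharpest lay at 26150344 to 26151209, 40000 bp upstream, with 27.8 counts per 1e+06 in the EPCAM-marked and 1.66 in the TRPC6-marked group, 10.8-fold, and was assigned to a second gene as well. FOXP4 (chromosome 26, start 4844099) had 6 of 20 peaks called for the EPCAM-marked group, beside the same 28.7%. The sharpest lay at 4828255 to 4829150, 14949 bp upstream, with 46.4 in the EPCAM-marked and 5.51 in the KDR-marked group, 7.28-fold. FOXS1 (chromosome 20, start 10063374) had none called; its most TRPC6-biased peak with 50 counts, at 10060082 to 10060814, had 43.9 in the TRPC6-marked and 22.05 in the KDR-marked group, 1.95-fold.

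Single peaks of members with RNA in several groups were called for particular groups, as were many peaks of all genes. How many peaks of each member had at least 50 counts is not given here. The counts per member were therefore not read as a result about the members. FOXP1 had 53 assigned peaks, SOX5 32 and SOX6 19. Of all peaks with at least 50 counts in their top group, 28.7% were called for the EPCAM-marked group. For the COL1A2-, PTPRC- and KDR-marked groups the shares were 5.85%, 2.96% and 1.56%. FOXP1 (chromosome 12, start 16503337) had 14 peaks called for the EPCAM-marked group and 1 at 16429262 to 16430177, 73160 bp downstream, with 71.8 in the PTPRC-marked and 6.63 in the TRPC6-marked group, 9.54-fold. SOX5 (chromosome 1, start 65833774) had 10 peaks called for the EPCAM-marked and 3 for the COL1A2-marked group, the sharpest of these at 66110962 to 66111871 inside the gene and assigned to a second gene too, with 46.5 in the COL1A2-marked and 7.46 in the TRPC6-marked group, 5.61-fold. SOX6 (chromosome 5, start 11601652) had 6 for the EPCAM-marked group and 1 for the KDR-marked group, at 11546377 to 11547268, 54384 bp downstream, with 34.9 in the KDR-marked and 4.97 in the TRPC6-marked group, 6.01-fold. FOXO6 (chromosome 23, start 1319424), which had 3 UMIs in E13 fibroblasts, had a peak at 1299031 to 1299854 with 15.1 in the COL1A2-marked and 5.51 in the KDR-marked group, 2.47-fold.

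Over all member peaks, 238 had at least 50 counts in their top group and 93 were called, beside 39.6% of all peaks. The calls were 72 for the EPCAM-marked group (28.7% of all peaks), 8 for the COL1A2-marked (5.85%), 7 for the KDR-marked (1.56%), 6 for the PTPRC-marked (2.96%) and 0 for the TRPC6-marked group (0.498%). The count of 93 is near the background. The EPCAM-marked group had 31973415 ATAC counts and the KDR-marked group 1632959, so the minimum of 50 counts admits weaker epithelial peaks.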

How the data were processed

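The deposited RNA matrices hold raw counts of UMIs per gene and barcode, made by the authors with cellranger 4.0.0 for the E20 libraries and cellranger-arc 2.0.0 for E13, per the file headers; the E13 matrix also holds raw ATAC counts per peak. The submitters' processing notes name Cell Ranger, Seurat, Signac and galGal6. Whether intron reads were counted is not given in the sources used here. From these counts, barcodes with at least 500 genes were kept (at E20 with at most 20% mitochondrial UMIs), leaving 5186, 2684 and 7038 barcodes at E20 (epithelial), E20 (CD45neg) and E13 after likely doublets, scored against simulated pairs, were removed at 0.8% per 1000 cells (235, 60 and 448). Each library was clustered on 2000 variable genes without mitochondrial, ribosomal protein, haemoglobin and member genes (30 principal components, 15 neighbours, leidenalg 0.10.2 at resolution 1). A cluster took the name of the marker list with the highest mean log2 ratio over the lower quartile of clusters, if at least 3 markers were on. In a marked group, the marking gene, as a share of its highest cluster level, also had to be at least 2 times that of the other 4 marking genes. These naming limits were set after seeing the data, and 190, 47 and 437 barcodes in the same order stayed unnamed. Groups of fewer than 30 cells were not compared. UMIs were summed per group. The calls were also run on simulated Poisson counts, with no outcome reported here. These hold no variation between cells or libraries and no free RNA, so they cannot test the calls against either. One member is not reported here; of the others, values in every group are given for those called or past 4-fold, and by range for others. Of their peaks, the one with the largest ratio of the called group over the next at 50 or more counts was named, and a few others after their values were seen. With 1 sample per group, no p-value was computed. The members and lists were chosen with earlier results of these data known. Alternatives were computed for cell filters, doublets, clustering resolution, grouping by single cells, genes counted in CPM, pseudocount, level filter, stage reference and peak sets. None was computed for the naming limits themselves, the marker lists, the 2-fold and 4-fold limits or the number of genes of like spacing. A count of 0 allows up to 3 counts of the total.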

Additional observations from a re-analysis of the deposited data

Results flagged for a closer look

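FOXO1 differed in opposite directions between the stages in 2 cell types, in both E20 libraries. Relative to genes of like spacing, its log2 ratio over E13 was 2.76 in the COL1A2-marked group of the E20 epithelial library and 2.26 in that of the E20 CD45neg library. In the KDR-marked group it was -1.49 and -2.08 with the same libraries. With at least 1000 detected genes the E20 CD45neg value there was -0.32, inside 4-fold. Both comparisons share the E13 nuclei, and the difference between the cell types was not tested.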

How the results depend on the processing

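With 1 library per stage and sort, no value has a replicate check, and the marked group with the fewest UMIs compared at E20 was the TRPC6-marked group of the E20 epithelial library (665227 UMIs). Grouping single cells by 1 marker gave 5 called members at E13, all 5 with peaks most open in the same group, and a limit of 40% mitochondrial UMIs at E13, which left 38 KDR-marked nuclei, gave 5 called members, 4 with such peaks. Promoter peaks only gave 5. A pseudocount of 5 CPM gave 3 members past 4-fold between stages in the EPCAM-marked group, no filter beyond 3 UMIs gave 10 in the KDR-marked group, and the median of all genes as the reference gave 7 in the COL1A2-marked group. Matching on extent, chosen after seeing the data, gave 2, 0 and 0 in the EPCAM-, KDR- and COL1A2-marked groups. Fewer members were compared there, and the share of all genes is not given. FOXO1 in the COL1A2-marked over the KDR-marked group of the E20 CD45neg library turned to -0.38 with at least 1000 detected genes; the cause was not tested. The other counts stayed within 1.5 times. Ratios of single members were recomputed only for the 46 that were called in the main setting. Stage ratios among them came from the EPCAM-marked group of the E20 epithelial and the KDR- and COL1A2-marked groups of the E20 CD45neg library. Of the recomputed values, 395 stayed inside their counting interval, 83 left it with the same sign and 1 changed sign. Other turns of direction given above, such as SOX5 in the TRPC6-marked group by extent, are not in these counts. No paired analysis was possible because each group has 1 sample.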
